A study of Mus musculus with 6 samples.

Results

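The Kelch-like (Klhl) family was described here as every gene symbol made of Klhl and a number, which gave 37 genes among the 23238 distinct symbols of the count tables. Of these, 25 had enough counts to be tested, 9 had some counts in at least 1 library but too few for a test, and 3 were at 0 in every library. RNA came from the gastrocnemius, a mostly fast muscle of the calf, of wild-type C57/BL6J mice aged 26 months. The 3 vehicle libraries came from mice given saline with 5% DMSO by mouth, and the 3 farnesol libraries from mice given farnesol, a sesquiterpene alcohol, by mouth at 350 mg/kg, both for 30 days. The design compares farnesol with vehicle in old animals only. The labels call the libraries biological replicates without naming the animals, so the tests rest on the spread among libraries, which may be partly technical.

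A Kelch-like protein carries a BTB domain, which binds the scaffold cullin 3, and a set of kelch repeats, which bind a substrate. Most members thereby act as substrate adaptors of a ubiquitin ligase, and the substrate differs from member to member. In striated muscle the family is best known for KLHL40 and KLHL41, whose loss causes nemaline myopathy and which stabilise thin filament proteins (nebulin for both, leiomodin 3 for KLHL40), and for KLHL31, whose loss causes a myopathy in mice.

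Per kb of transcript, aged gastrocnemius expressed 3 muscle members, Klhl41, Klhl31 and Klhl40, far above the rest of the family. Without division by length these 3 were still highest, but Klhl40 was nearer in proportion to the next member, Klhl21. Klhl40 then ran from 183 to 283 CPM (counts scaled to library size) and Klhl21 from 92.1 to 156 CPM. The levels of the 3 muscle members were close in vehicle and farnesol libraries. Klhl41, Klhl31 and Klhl40 together made up 79.3% ± 3.10 (SD, n = 3) of the family's summed level per kb of transcript in vehicle and 81.7% ± 1.84 in farnesol libraries (exact two-sided permutation p = 0.4, where 3 against 3 libraries allow no p below 0.1). Over all Klhl genes, 0 of 25 tested members passed in edgeR's quasi-likelihood test at a threshold of 0.05 on the adjusted p, and 0% of all 11674 tested genes did. DESeq2 and limma-voom also called 0 members. At an unadjusted edgeR p under 0.05 there was 1 member, Klhl21, which stood lower after farnesol, against 3.01% of all tested genes in either direction and 1.26% in the lower one. No member reached it in the higher direction, against 1.75% of all tested genes.

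The libraries held 9895700 to 12707751 counts, and the family took 0.194% to 0.212% of them, with a vehicle mean of 0.203% ± 0.00853 and a farnesol mean of 0.206% ± 0.00632 (exact two-sided permutation p = 0.6). Skeletal muscle identity was plain, and all 12 skeletal muscle fibre markers were tested. Their summed CPM (counts scaled to library size with TMM factors) ran from 123435 to 182451 in vehicle libraries. In farnesol libraries the sum ran from 156208 to 168542 CPM. Farnesol replicate 1 stood apart in 4.97% of counts on the ribosomal RNA precursor Rn45s, against 9.92% to 15.4% elsewhere. In that library Spearman's correlation, across genes, between transcript length and the departure from a gene's average level was −0.25, and it was 0.02 to 0.10 in the other 5 libraries. Vehicle replicate 3 had the lowest muscle fibre sum and the highest macrophage marker sum, 207 CPM against 91.9 to 151 CPM elsewhere. In a piece of bulk tissue, fewer cells of a type and less RNA per cell cannot be told apart.

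The level of a gene is compared with that of another gene as CPM per kb of its longest GENCODE transcript, and also in plain CPM. These libraries read a transcript near its 3′ end, so counts need not rise with its length. Division by length can then place a long transcript too low, such as Klhl31 at 6494 bases against 2529 for Klhl41. Per kb, Klhl41 stood highest at a mean of 207 CPM per kb over the 6 libraries (range 181 to 233), above 98.3% of tested genes. Klhl31 followed at 135 CPM per kb (101 to 166) and Klhl40 at 95.4 CPM per kb (77.2 to 119). The ranges of Klhl41 and Klhl31 did not overlap, whereas those of Klhl31 and Klhl40 did. Klhl21 came next at 31.2 CPM per kb (23.1 to 39.1), then Klhl30 at 17.6 (15.3 to 20.0) and Klhl24 at 10.6 (8.64 to 12.9), each range separate from the one above it. Among the 18 members of known length that averaged 5 CPM or more, 4 of 17 neighbouring pairs in this order had separate ranges. All 4 lay among the 6 highest members, and from Klhl24 downward every neighbour overlapped the next. Without division by length Klhl31 stood above Klhl41 with separate ranges, 653 to 1077 CPM against 457 to 588 CPM. Its range was then also separate from that of Klhl40, 183 to 283 CPM. Klhl24 stood above Klhl30 on that scale. Which member stood highest, and which ranges overlapped among the highest members, thus depended on the division by length.

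**Figure D1:**
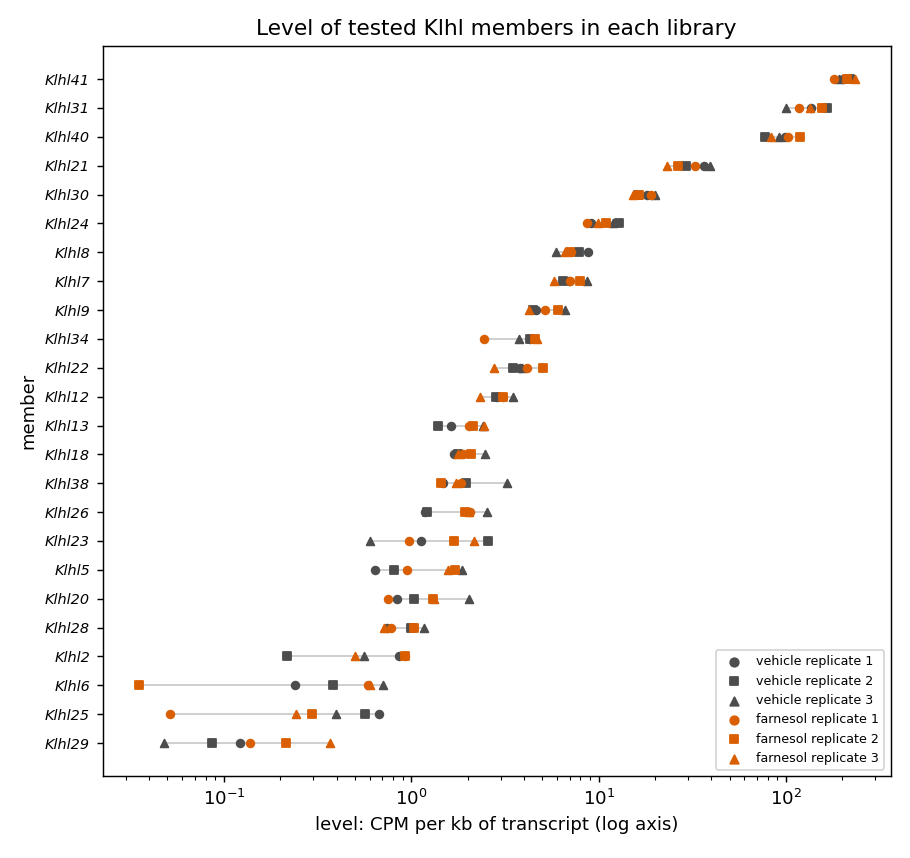
Level of the 24 tested Klhl members with a transcript length, as CPM per kb on a log axis, with 1 point per library (grey, vehicle; orange, farnesol). Klhl41, Klhl31 and Klhl40 lie between 77.2 and 233 CPM per kb in every library, and the orange and grey points of a member are intermixed except for the 2 lowest rows, Klhl25 and Klhl29.

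Klhl41 (chromosome 2, 69670120 to 69684239, mm10), which is needed for nebulin stability, was measured at 512, 558 and 485 CPM in vehicle replicates 1 to 3 and at 457, 534 and 588 CPM in farnesol replicates 1 to 3. The groups overlapped, with the highest and the lowest library both in the farnesol group. Its fold was 1.02 with a 95% interval of 0.819 to 1.26 (edgeR, n = 3 and 3), from a mean of 5640 counts per library. A change of 1.5 times in either direction lies outside that interval.

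Klhl40 (chromosome 9, 121777499 to 121791200), the partner that stabilises nebulin and leiomodin 3, was at 234, 183 and 218 CPM in vehicle and at 243, 283 and 196 CPM in farnesol libraries. Both of the higher farnesol libraries exceeded every vehicle library, while farnesol replicate 3 lay inside the vehicle range. The fold was 1.14 (95% interval 0.904 to 1.44; edgeR). Its log2 fold change ran from 0.06 without farnesol replicate 2 to 0.31 without farnesol replicate 3, positive in all 6 fits that left out 1 library. The RefSeq locus of Klhl40 reaches into Hhatl, a gene on the opposite strand (121784016 to 121792507), and the counting of strand is not given in the sources used here. Hhatl itself stood at 137 and 128 CPM in the group means, and the GENCODE model of Klhl40 ends before it. At the other end, an annotated transcript on the opposite strand, Gm47108, overlaps exons of Klhl40. The ratio of Klhl40 to Klhl41, each per kb, was 0.439 ± 0.0771 in vehicle and 0.497 ± 0.121 in farnesol libraries (exact two-sided permutation p = 0.5).

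The bases just before the starts of both nemaline myopathy genes are shown because the family's highest levels belong to muscle members and these are the windows from which such genes are read. They were taken from the RefSeq promoter table of GRCm38.p6 on the plus strand, and end before the outermost start that RefSeq or GENCODE gives. Capitals mark matches, on either strand, to the E-box CANNTG, the letters bound by MyoD-type factors, and to the consensus of MEF2, a muscle transcription factor. The Klhl41 stretch is chr2:69669870-69670119 and the Klhl40 stretch is chr9:121777357-121777498.
Klhl41: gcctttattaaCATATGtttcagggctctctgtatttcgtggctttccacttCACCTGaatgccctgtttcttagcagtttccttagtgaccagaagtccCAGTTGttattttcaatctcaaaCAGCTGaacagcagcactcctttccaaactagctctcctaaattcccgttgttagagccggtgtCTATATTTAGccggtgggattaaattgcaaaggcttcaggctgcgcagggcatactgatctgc
Klhl40: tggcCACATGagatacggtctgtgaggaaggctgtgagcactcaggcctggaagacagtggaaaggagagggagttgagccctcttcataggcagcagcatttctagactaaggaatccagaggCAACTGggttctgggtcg

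The Klhl41 window of 250 bases held 4 E-boxes and 1 MEF2 match, which ended 53 bases before the start. Over all 32851 windows of this length in the table, 3.84% held at least 4 E-boxes and 0.508% a MEF2 match. The Klhl40 window held 3 E-boxes, 2 of them in the printed stretch, and no MEF2 match, while 12.2% of all windows held at least 3 E-boxes. Of the 31 members with a window in the table, 19 had an E-box in at least 1 window. Counted by window, 25 of the members' 41 windows (61.0%) held one, against 66.2% of all windows. The MEF2 consensus was found for 2 members, Klhl41 and Klhl33, of which Klhl33 had 0 to 13 counts per library. The Klhl31 window, from which none of the bases are printed because most lie inside a GENCODE transcript, held neither motif. A match is a description of letters and shows no binding.

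Klhl31 (chromosome 9, 77636732 to 77660125), reported to act on filamin C, was at 883, 1077 and 653 CPM in vehicle and at 765, 1008 and 874 CPM in farnesol libraries. Vehicle libraries spanned the whole farnesol range, with vehicle replicate 2 highest and vehicle replicate 3 lowest of the 6. The fold was 1.01 (95% interval 0.786 to 1.31; edgeR). Its log2 fold change moved between −0.15 without vehicle replicate 3 and 0.20 without vehicle replicate 2.

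Klhl30 (chromosome 1, 91351073 to 91362404) stood at 56.1, 50.2 and 61.7 CPM in vehicle and at 59.1, 51.0 and 47.4 CPM in farnesol libraries. The groups overlapped and the fold was 0.937 (0.735 to 1.20; edgeR). Klhl34, an X-linked gene, was at 7.98 ± 0.595 CPM in vehicle and 7.57 ± 2.44 CPM in farnesol libraries, a fold of 0.949 (0.595 to 1.51). Farnesol replicate 1 was the lowest for it, at 4.76 CPM against 7.29 to 9.08 CPM elsewhere. Klhl38 was at 3.26, 4.35 and 7.20 CPM in vehicle and 4.05, 3.18 and 3.82 CPM with farnesol. The log2 fold change of −0.43 (SE 0.42) shrank to −0.05 without vehicle replicate 3, its highest library, and the count is uncertain because an antisense gene, Gm15943, overlaps its exons.

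**Figure D2:**
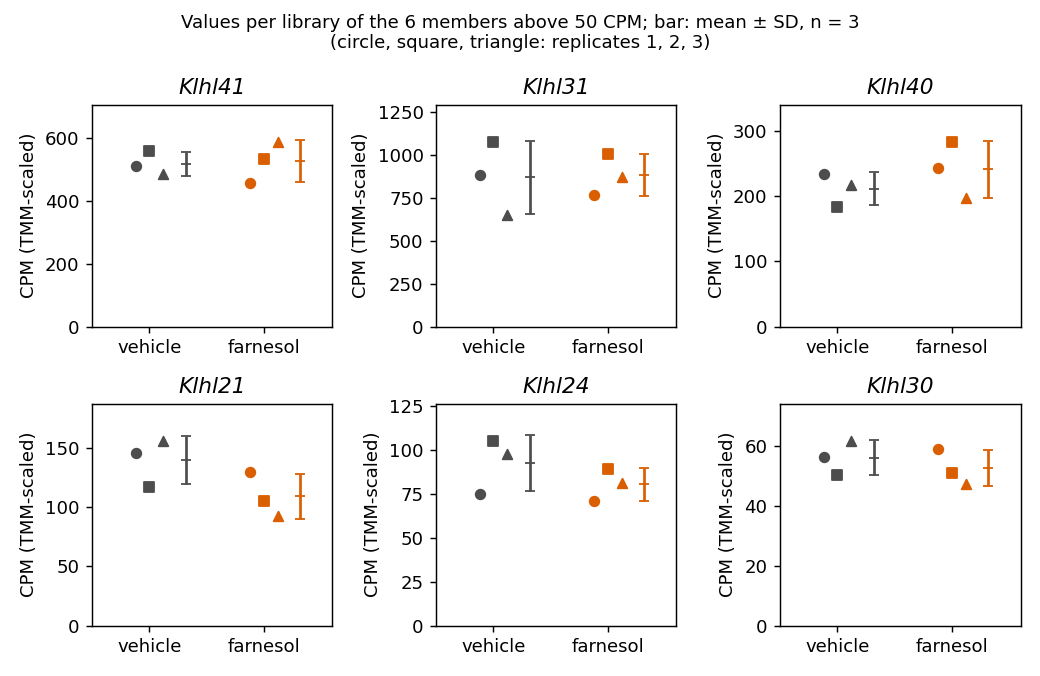
CPM of the 6 members above 50 CPM in each library, on axes that start at 0, with the group mean and SD (n = 3) beside the points. Groups overlap in all 6 panels; for Klhl21 2 of 3 farnesol points, at 105 and 92.1 CPM, lie below all vehicle points.

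Klhl21 (chromosome 4, 152008891 to 152017677), an adaptor known from the targeting of the mitotic kinase Aurora B, gave the family's smallest p. It stood at 146, 117 and 156 CPM in vehicle and at 130, 105 and 92.1 CPM in farnesol libraries. Farnesol replicate 1 lay above vehicle replicate 2, so the groups overlapped. An annotated transcript on the opposite strand, Gm9768, overlaps its exons, so the count is uncertain. The fold was 0.781 (95% interval 0.615 to 0.992 before adjustment). It did not pass over all genes (edgeR, adjusted p = 1.0). The direction held in all 6 fits that left out 1 library, with log2 fold changes of −0.50 to −0.25. The unadjusted edgeR p was under 0.05 in 2 of them, without vehicle replicate 2 (0.0166) and without farnesol replicate 1 (0.00790). It was 0.109 without vehicle replicate 1, 0.154 without vehicle replicate 3, 0.104 without farnesol replicate 2 and 0.195 without farnesol replicate 3.

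The other adaptors of cell division were lower in level and gave no unadjusted edgeR p under 0.05. Klhl9 (chromosome 4, 88718292 to 88722508), which acts on Aurora B together with Klhl13, was at 19.4, 18.6 and 27.7 CPM in vehicle and at 21.7, 25.4 and 17.7 CPM in farnesol libraries, a fold of 0.986 (0.711 to 1.37; edgeR). An annotated gene on the opposite strand, Gm26566, overlaps its exon, so its counts are uncertain. Klhl13, whose exons overlap the pseudogene Gm14523, was at 6.06 ± 1.77 and 7.35 ± 0.713 CPM, with a fold of 1.21 (0.747 to 1.96). Klhl22 (chromosome 16, 17759621 to 17793382), reported to act on the kinase Plk1 and on the nutrient sensor Depdc5, was at 12.5, 11.4 and 12.7 CPM in vehicle and at 13.6, 16.5 and 9.08 CPM in farnesol libraries. The farnesol libraries thus spanned the vehicle values, and the fold was 1.07 (0.730 to 1.57; edgeR). Klhl18, reported to act on Aurora A, stood at 9.19 ± 2.03 and 8.90 ± 0.742 CPM, a fold of 0.967 (0.636 to 1.47).

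Klhl24 (chromosome 16, 20097553 to 20129226), an adaptor for keratin 14 in skin whose mutation also affects the heart, ranked just below Klhl30 per kb. Its values were 74.9, 105 and 97.4 CPM in vehicle and 70.6, 89.2 and 80.9 CPM in farnesol libraries. The groups overlapped, with vehicle replicate 1 and farnesol replicate 1 lowest, and the fold was 0.868 (0.682 to 1.10; edgeR). Klhl8 (chromosome 5, 103862050 to 103911259), reported to act on rapsyn, the anchor of acetylcholine receptors at the nerve-muscle junction, was at 28.2, 25.1 and 19.0 CPM in vehicle and at 22.7, 22.3 and 21.2 CPM in farnesol libraries. The farnesol libraries lay inside the vehicle range, and the fold was 0.916 (0.675 to 1.24; edgeR).

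Klhl7 (chromosome 5, 24100565 to 24163369), a retinitis pigmentosa gene, was at 21.5, 19.9 and 26.9 CPM in vehicle and at 21.7, 24.5 and 17.9 CPM in farnesol libraries, a fold of 0.938 (0.686 to 1.28; edgeR). The groups overlapped. Klhl12 (chromosome 1, 134455495 to 134490880), which acts on Sec31 of the secretory coat and on Dishevelled, was at 14.3, 14.2 and 17.4 CPM in vehicle and at 15.3, 15.4 and 11.7 CPM in farnesol libraries. The fold was 0.926 (0.654 to 1.31; edgeR), again with overlapping groups. All 11 members with a mean of at least 10 CPM had a 95% interval for the fold that lay within 2-fold in either direction, and 15 of the 25 tested members did.

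Among the remaining tested members, the WNK kinase adaptor Klhl2 was at 2.80 ± 1.65 CPM in vehicle and 4.04 ± 1.26 CPM in farnesol libraries, with a fold interval of 0.701 to 2.96. Klhl20, an adaptor for the kinases Dapk1 and Ulk1, was at 6.27 ± 3.12 and 5.43 ± 1.57 CPM (0.490 to 1.52). Klhl17, known as actinfilin in neurons, was at 2.42 ± 0.931 and 3.74 ± 1.05 CPM (0.762 to 3.10), and its RefSeq locus overlaps that of Noc2l. The interval of each of these 3 included no change.

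Klhl5, Klhl23, Klhl26 and Klhl28 had group means between 3.98 and 7.43 CPM. Their folds were 1.27 (95% interval 0.676 to 2.41) for Klhl5, 1.13 (0.590 to 2.16) for Klhl23, 1.22 (0.704 to 2.11) for Klhl26 and 0.871 (0.524 to 1.45) for Klhl28 in edgeR. The log2 fold change of Klhl5, 0.35, became 0.96 when vehicle replicate 3 was left out and 0.07 when vehicle replicate 1 was. That of Klhl23, 0.17, became 0.90 when vehicle replicate 2 was left out and −0.20 when vehicle replicate 3 was. Klhl23 varied most among them, from 2.80 CPM in vehicle replicate 3 to 11.8 CPM in vehicle replicate 2. Klhl6, best known from germinal centre B cells, was at 0.0837 to 1.69 CPM per library (66 counts in all), and its interval ran from 0.250 to 3.32. The B cell marker Cd79a had a mean of 0.833 counts per library.

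In 2 of the 25 tested members the groups did not overlap, as in 8.82% of all tested genes. Klhl25 (chromosome 7, 75848338 to 75874133), an adaptor for the translation repressor Eif4ebp1 and for ATP citrate lyase, had 24, 19 and 16 counts in vehicle and 2, 12 and 8 counts in farnesol libraries. All farnesol values lay below all vehicle values in CPM too, with group means of 0.669 ± 0.436 against 1.86 ± 0.476, as in 4.07% of tested genes. Its log2 fold change was −1.46 (SE 0.80; edgeR). Klhl29 (chromosome 12, 5077465 to 5375682) had 9, 6 and 4 counts in vehicle and 11, 18 and 25 counts in farnesol libraries. All farnesol values, at 0.970 to 2.58 CPM, lay above all vehicle values, at 0.339 to 0.863 CPM, as in 4.75% of tested genes. Its log2 fold change was 1.47 (SE 0.82; edgeR). Both genes kept their direction in all 6 fits that left out 1 library, an outcome that groups without overlap nearly fix in advance. At a mean of 13.5 and 12.2 counts per library, their fold intervals were 0.115 to 1.15 and 0.854 to 8.95.

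**Figure D3:**
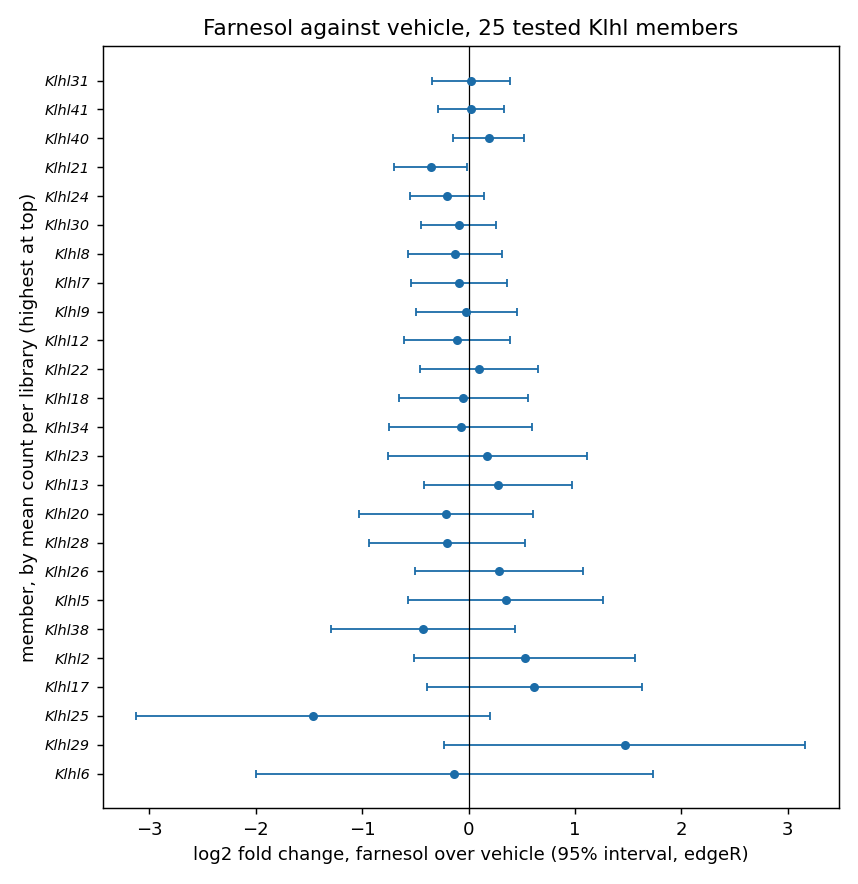
Log2 fold change of farnesol over vehicle for the 25 tested members with its 95% interval from edgeR, ordered by mean count with the highest at the top. The intervals widen towards the bottom, where counts are few, and that of Klhl21 alone excludes 0, before adjustment over all genes.

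Of the 9 members with too few counts for the test, Klhl42, an adaptor for the microtubule-severing enzyme katanin, had 18, 10 and 10 counts in vehicle and 7, 2 and 2 counts in farnesol libraries. All farnesol values of Klhl42 lay below all its vehicle values in CPM too, as in 4.07% of tested genes. That share leaves out genes which, like Klhl42, had too few counts for the test. Without the filter on low counts the unadjusted edgeR p of Klhl42 was 0.136. Klhl36 had 0 to 24 counts per library, Klhl15 0 to 13, Klhl33 0 to 13, Klhl11 0 to 12 and Klhl4 0 to 12. Klhl3, the kidney partner of Klhl2, had 14 counts in vehicle replicate 1 and 3 in farnesol replicate 2 and was at 0 elsewhere. Klhl32 reached 12 counts in farnesol replicate 2 and at most 1 elsewhere. Klhl10, a gene of sperm maturation, had 5 counts in farnesol replicate 3 and 0 elsewhere. The neuronal gene Klhl1, and Klhl14 and Klhl35, had 0 counts in all 6 libraries, which allows up to 0.251 to 0.310 CPM depending on the library (3 counts, counting error only).

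Across the tested members 11 of 25 had a fitted log2 fold change above 0, against 49.1% of all tested genes. Their median was −0.05, beside −0.01 over all tested genes, and their values ran from −1.46 (Klhl25) to 1.47 (Klhl29). The sign of the median turned with the choice of libraries: leaving out vehicle replicate 3 gave 0.05, and leaving out farnesol replicate 2 gave −0.11. The median deviation of the 25 members from their 6-library means, as log2(CPM + 0.5), was 0.21 in vehicle replicate 3 and 0.12 in farnesol replicate 2, and −0.14 to −0.01 in the other 4 libraries. Over all tested genes the same median was 0.01 to 0.02 in each library.

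Vehicle replicate 3 was the highest library for 12 of the 25 members, against 18.2% of all tested genes. These 12 were Klhl5, Klhl6, Klhl7, Klhl9, Klhl12, Klhl18, Klhl20, Klhl21, Klhl26, Klhl28, Klhl30 and Klhl38. The same library was the lowest of the 6 for Klhl31, Klhl8, Klhl23 and Klhl29. It also held the lowest muscle fibre sum and the highest macrophage sum given above, and 7 of 7 macrophage markers had a fitted log2 fold change below 0 (0 of 7 passed over all genes in edgeR). The median of these 7 was −0.30, and 0.05 when vehicle replicate 3 was left out. For 1 of the 7, Adgre1, the unadjusted edgeR p was under 0.05 (0.0207), against 1.26% of all tested genes in the lower direction. Vehicle replicates 1 to 3 gave 6.04, 5.26 and 6.53 CPM for Adgre1. Farnesol replicates 1 to 3 gave 2.20, 4.35 and 2.06 CPM. The groups of Adgre1 thus did not overlap, with or without vehicle replicate 3. None of these 7 markers was at 0, and their part in the members' values was not tested.

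**Figure D4:**
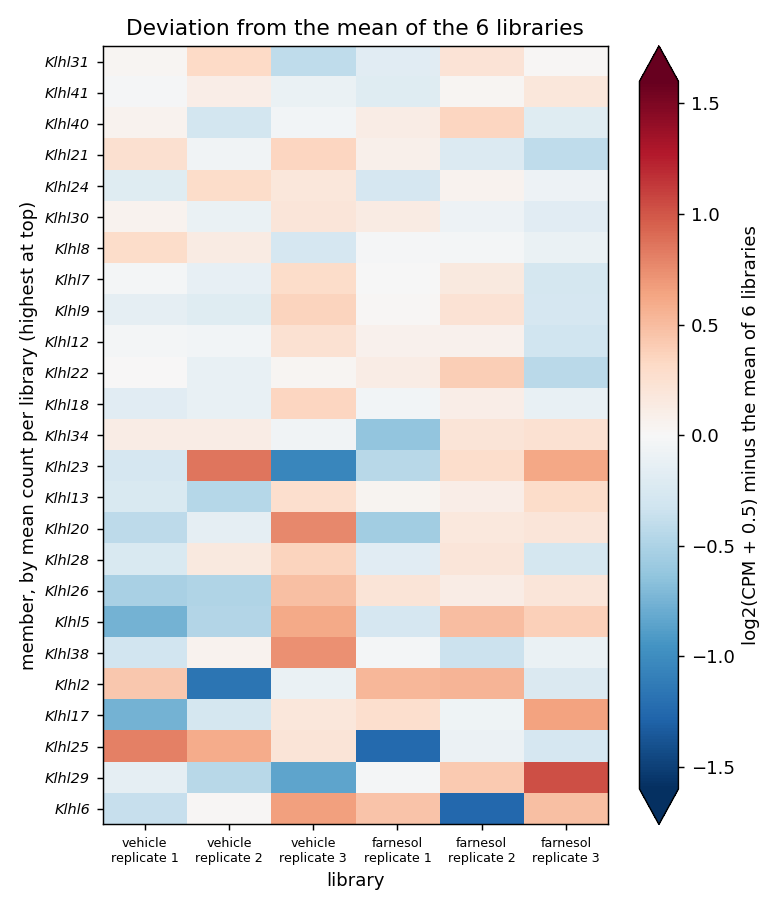
Deviation of log2(CPM + 0.5) from the mean of the 6 libraries for each tested member (rows, highest mean count at the top) in each library (columns). Vehicle replicate 3 is the highest library in 12 rows, while Klhl31 in the top row is lowest there.

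All 8 adipocyte markers had a log2 fold change above 0 (median 0.66), and 0 passed the threshold over all genes. At an unadjusted edgeR p under 0.05, 4 of them stood higher, against 1.75% of all tested genes. The summed level of the 8 was 1596 to 1996 CPM in vehicle and 1793 to 2410 CPM in farnesol libraries. Car3 alone made up most of that sum. It averaged 1508 ± 239 CPM in vehicle and 1711 ± 382 CPM in farnesol libraries, beside mean sums of 1808 and 2098 CPM. The sum therefore mainly follows Car3 and says little of the other adipocyte markers. Of 6 erythroid markers, 4 had a log2 fold change above 0 (median 0.40), and 0 of the 6 passed the threshold over all genes. At an unadjusted edgeR p under 0.05, 3 of the 6 stood higher, against the same 1.75% of all tested genes. The sums of the 6 markers were 3452 to 5595 CPM in vehicle and 5390 to 9598 CPM in farnesol libraries. The other marker lists had medians between −0.36 (B and T cells, 1 tested gene) and 0.18 (Schwann cells and nerve), with overlapping ranges of their sums in the groups for all of them. No adipocyte or erythroid marker was at 0. Their part in the members' values was not tested.

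The ligase on which the adaptors sit was measured alongside. Of 14 genes of the cullin 3 core and its activation by Nedd8, 7 were higher and 7 lower, with a median log2 fold change of 0.0020, and 0 passed over all genes in edgeR (0 at an unadjusted p under 0.05). Cul3, the scaffold, stood at 156 ± 17.6 CPM in vehicle and 153 ± 27.0 CPM in farnesol libraries, a fold interval of 0.780 to 1.24. Rbx1, the RING subunit that recruits the ubiquitin-loaded enzyme, was at 51.6 ± 5.33 and 59.3 ± 5.13 CPM with groups that did not overlap (log2 fold change 0.20, SE 0.17). Nedd8, the modifier that activates cullins, was at 77.2 ± 7.27 and 88.9 ± 17.2 CPM. Uba3, a subunit of its activating enzyme, was at 8.81 ± 3.88 and 6.88 ± 1.29 CPM, and Dcun1d4, a helper of cullin neddylation, at 5.53 ± 1.06 and 3.74 ± 2.37 CPM. The 9 measured subunits of the COP9 signalosome, which removes Nedd8, had 5 higher and 4 lower members and a median of 0.0046, with 0 passing over all genes and 0 at an unadjusted edgeR p under 0.05. Its members of smallest p were Cops7a (0.27, SE 0.27), Cops7b (−0.23, SE 0.24), Cops6 (−0.12, SE 0.18) and Cops4 (−0.09, SE 0.16) on the log2 scale.

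Of 14 BTB-kelch genes that carry other names, 13 were tested, Kbtbd6 being at 0 in every library. Among them 6 were higher and 7 lower, with a median of −0.03 and 0 past the threshold over all genes in edgeR (0 at an unadjusted p under 0.05). Among the genes of small p were Kbtbd12 (log2 fold change −0.57, SE 0.48), Kbtbd3 (0.69, SE 0.58) and Kbtbd7 (0.48, SE 0.47). The groups did not overlap for 1 of the 13, Kbtbd3, which was higher with farnesol, as in 4.75% of all tested genes.

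Transcripts of proteins tied to the muscle adaptors, Neb, Lmod3, Nrap and Flnc, were measured within a wider list. The other genes of that list are not among the reported substrates given below. Of 16 thin filament and nemaline myopathy genes, 9 were higher and 7 lower, with a median of 0.04, and 0 passed over all genes in edgeR (0 at an unadjusted p under 0.05). Neb, which encodes the nebulin ruler of the thin filament, was at 16776 ± 1898 CPM in vehicle and 15328 ± 2317 CPM in farnesol libraries (log2 fold change −0.13, SE 0.19). Lmod3, the leiomodin that nucleates actin, was at 139 ± 32.7 and 156 ± 43.0 CPM (0.17, SE 0.20). Nrap, a scaffold of myofibril assembly that binds Klhl41, was at 1281 ± 88.3 and 1078 ± 163 CPM (−0.25, SE 0.16). Flnc, filamin C, stood at 267 ± 57.6 and 212 ± 44.3 CPM (−0.34, SE 0.18). The slow troponin T gene Tnnt1 (0.25, SE 0.18) and Myo18b, an unconventional myosin of the sarcomere (−0.22, SE 0.16), came next by p.

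Of 27 reported substrates and co-adaptors, which include Neb, Lmod3, Nrap and Flnc, 24 were tested, 10 higher and 14 lower with a median of −0.11. None passed over all genes in edgeR, and 1 had an unadjusted p under 0.05, against 3.01% of all tested genes. This was Aurka, the Aurora A kinase, at 2.79 ± 0.799 CPM in vehicle and 5.60 ± 0.50 CPM in farnesol libraries (log2 fold change 1.01, SE 0.41, 95% fold interval 1.11 to 3.65). Its groups did not overlap, the case for 1 of the 24 tested genes and for 8.82% of all tested genes (4.75% with farnesol higher). Acly, the ATP citrate lyase that Klhl25 acts on, was at 6.71 ± 2.68 and 9.86 ± 2.38 CPM (0.55, SE 0.33). Aurkb, the substrate of Klhl9, Klhl13 and Klhl21, had 0 counts in all 6 libraries.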

How the data were processed

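Libraries were made from 500 ng of total RNA with a Lexogen QuantSeq 3′ kit, per the labels' protocols. The deposited tables hold raw read counts per gene symbol, 1 library per table; Bowtie2, bedtools and mm10 are named, per the submitters' processing notes, with no version, annotation or strand setting given in the sources used here. Of 23282 lines, 35 symbols stood on more than 1 line and were summed; no member was among them.

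Counts were tested with edgeR 4.0.16 in R 4.3.3 (filterByExpr, TMM, glmQLFit with robust fitting, glmQLFTest), with Benjamini-Hochberg adjustment over all 11674 genes and a threshold of 0.05. CPM used the counts of the tested genes, times the TMM factor, as library size. A standard error is |log2 fold change| divided by √F. The procedure was tested on simulated data. Libraries of a group correlated at 0.959 to 0.964 (log2 CPM) and libraries of different groups at 0.957 to 0.968, with none alike within sampling noise.

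Alternatives used DESeq2 1.42.0 and limma 3.58.1, other scalings and filters, and each library left out. Members and lists were chosen with earlier results of these data known. The text names every member; of each pathway list it names up to 4 genes of smallest unadjusted p, Cul3, Rbx1, Neb, Lmod3, Nrap and Flnc. Some list genes are not reported here. Positions and promoters are from RefSeq (GRCm38.p6), lengths from GENCODE vM21 (found for 36 of 37 members; Klhl17 had none). Intervals cover counting and replicate error only.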

Additional observations from a re-analysis of the deposited data

How the results depend on the processing

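In all 14 alternatives 0 Klhl members passed over all genes. The number of genes called was 0 except without the filter on low counts, where it was 13, and when 1 library was left out, where it ran from 0 to 3 (3 without vehicle replicate 2). The members' median log2 fold change ran from −0.11 to 0.05 when 1 library was left out and from −0.06 to −0.03 in the other 8 alternatives, in which no member changed direction. With the replicate number as a block, edgeR called 0 genes, 428 genes had an unadjusted p under 0.05 against 351, and the median was −0.03. Deviations of same-numbered libraries correlated at −0.01 to 0.07. No value for differently numbered libraries stands beside these, so they cannot decide whether the numbers pair the libraries. The main fit left pairing out because the labels do not say what a shared number marks. With 1 library left out, 13 members kept their direction and 12 changed it. The lowest and highest log2 fold changes of these 12 were −0.51 and 0.42 for Klhl6, −0.20 and 0.046 for Klhl7, −0.27 and 0.0017 for Klhl8, −0.15 and 0.19 for Klhl9, −0.18 and 0.0064 for Klhl12, −0.15 and 0.15 for Klhl18, −0.45 and 0.27 for Klhl20, −0.11 and 0.30 for Klhl22, −0.20 and 0.90 for Klhl23, −0.15 and 0.20 for Klhl31, −0.23 and 0.17 for Klhl34, and −0.067 and 0.11 for Klhl41. The cause was not tested. A filter at a mean of 5 CPM removed 7 tested members (Klhl2, Klhl5, Klhl6, Klhl17, Klhl25, Klhl29 and Klhl38). The fold interval lay within 2-fold either way for all 11 members of at least 10 CPM and for 4 of the 14 tested members below it (Klhl13, Klhl18, Klhl28 and Klhl34). Depth was not varied.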
